A study of Mus musculus with 12 samples.

Results

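The 10 genes described here are *Camk2b*, *Cdc42bpg*, *Wwc2*, *Rab4a*, *Myo18b*, *Dio2*, *Fam83h*, *C77080*, *1700112E06Rik* and *Ank1*. They were picked by symbol from the 43280 genes of the deposited table as single genes, belonging to no common family, whose RNA level differed between wild type (wt) and *Treml4-/-* macrophages at 1 or more time points. Their genotype differences are therefore what chose them and are given as a description without a test, whereas their response to lipopolysaccharide (LPS) over both genotypes was not used in the choice and was tested. All 10 had at least 1 CPM (reads of the gene per 1000000 reads counted on genes) in 2 libraries or more, as did 12086 of the 43280 genes.

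Bone marrow-derived macrophages (BMDM), which are cultured from mouse bone marrow with the growth factor M-CSF, came from wt and *Treml4-/-* mice, all of C57BL6 background. *Treml4* encodes a receptor of the TREM family, and the *Treml4-/-* mice carried the mutation in every cell. Cells received PBS vehicle (M0) or 100 ng/ml LPS, the bacterial cell wall component that polarizes macrophages to the inflammatory M1 state, for 8 h (M1-8 h) or 12 h (M1-12 h), and poly(A) RNA was sequenced from 2 biological replicates of each of the 6 conditions. The labels do not say whether the replicates were separate animals or separate cultures of the same animal, so p-values measure the spread between these 12 libraries.

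The 10 genes have unlike functions. *Camk2b* encodes the beta subunit of calcium/calmodulin-dependent protein kinase II, a kinase best known from neurons, and *Cdc42bpg* encodes MRCK gamma, a kinase that binds the small GTPase Cdc42 and acts on actomyosin. *Rab4a* is a small GTPase of the fast recycling route from early endosomes, and *Wwc2* is a WW and C2 domain protein of the KIBRA family that feeds into Hippo signalling through the LATS kinases. *Myo18b* is an unconventional myosin heavy chain best known from striated muscle, *Ank1* is the ankyrin that ties the spectrin skeleton of red cells to the membrane, and *Dio2* is the deiodinase that turns thyroxine into the active hormone T3. *Fam83h* belongs to a family of casein kinase 1 anchoring proteins, *C77080* is related to the gene of Nance-Horan syndrome, and *1700112E06Rik*, now named *Lrmda*, codes for a leucine-rich repeat protein. LPS acts on macrophages through Toll-like receptor 4, which turns on inflammatory genes within hours while much of the resting macrophage program is turned down.

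Between 48008751 and 58500792 reads were counted on genes per library, and 3 reads, the most that a count of 0 allows, correspond to 0.0513 to 0.0625 CPM. *Treml4* had 8.35 and 6.57 CPM in wt M0, 3.997 and 3.96 CPM in wt M1-8 h and 9.82 and 13.2 CPM in wt M1-12 h, and no read in any of the 6 *Treml4-/-* libraries. All 8 macrophage markers were expressed, with summed levels of 20710 to 27910 CPM at M0 and 9996 to 13420 CPM after LPS, and the 6 markers of LPS-stimulated macrophages summed to 83.2 to 113 CPM at M0 and 23660 to 27850 CPM after LPS. *Xist* had 0.791 CPM in wt M0 replicate 1 and at most 0.0513 CPM elsewhere. The 100 most abundant genes took 27.9 to 30.4% of the reads at M0 and 32.4 to 37.3% after LPS. Scaled to library size, as deposited, the median gene fell by 0.72 on the log2 scale at M1-8 h and by 0.76 at M1-12 h over both genotypes. Scaling by the median of ratios, which sets the typical gene to no change, moved all LPS fold changes against M0 up by a median of 0.75 at 8 h and 0.79 at 12 h, and raised the share of called genes that were higher after LPS from 22.3 to 49.8% at 8 h and from 21.2 to 50.04% at 12 h. LPS changes are therefore also given relative to the median gene.

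At M0, 6 of the 10 genes were called between genotypes, that is, past the study's thresholds of 0.05 for the adjusted p and 1.4 for the fold change. Of all genes tested 0.0993% were called there, 0.0414% higher and 0.0579% lower in wt. *Camk2b*, *Cdc42bpg* and *Rab4a* were the 3 higher in wt, and *Wwc2*, *1700112E06Rik* and *Ank1* the 3 lower. After 8 h of LPS the called genes were 5, where 0.091% of all genes were called, 0.0331% higher and 0.0579% lower. *Camk2b*, *Cdc42bpg* and *Myo18b* were higher in wt and *Wwc2* and *1700112E06Rik* lower. *Myo18b* reached 1 CPM only in the wt M1-8 h libraries, so a higher level in wt at 8 h was built into its being tested. After 12 h they were 7, where 0.132% of all genes were called, 0.0496% higher and 0.0827% lower. *Camk2b*, *Cdc42bpg* and *Rab4a* were higher in wt and *Wwc2*, *Dio2*, *C77080* and *1700112E06Rik* lower. In the mean over the 3 time points, a comparison added after seeing the data, 9 were called, 3 higher and 6 lower, where 0.414% of all genes were called, 0.0827% higher and 0.331% lower. *Fam83h* goes against the description of the set, since it was called at no single time point and only in that mean. *Myo18b* was the gene not called in the mean. The shares at the single time points rested on 12, 11 and 16 genes, and single libraries moved them. At M0 there were 219 genes without wt replicate 1 and 7 without *Treml4-/-* replicate 1. At M1-8 h there were 598 without *Treml4-/-* replicate 1 and 19 without wt replicate 1. At M1-12 h there were 79 without wt replicate 1 and 6 without either wt replicate 2 or *Treml4-/-* replicate 2, 7 without *Treml4-/-* M1-12 h replicate 1, and 10 without *Treml4-/-* M0 replicate 1 or replicate 2.

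Among the called log2 differences between wt and *Treml4-/-*, those of *Myo18b* at M1-8 h (0.69) and *Ank1* at M0 (-0.84) were smallest in size. Among those not called, *Rab4a* at M1-8 h (0.81) and *Fam83h* at M0 (-0.69) were largest, and *Fam83h* had -0.58 and -0.59 after 8 h and 12 h. For each of the 10 genes the wt and *Treml4-/-* libraries did not overlap at any time point, a separation that the choice of the genes used. The share of all genes separated in this way was not counted, and with 2 libraries per group separation at a single time is common. This is therefore a description of the 10 genes only. *Camk2b*, *Cdc42bpg* and *Rab4a* were above and *Wwc2*, *Dio2*, *Fam83h*, *C77080*, *1700112E06Rik* and *Ank1* below 1 in the wt to *Treml4-/-* ratio at all 3 time points. *Myo18b* crossed from below to above.

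**Figure D1:**
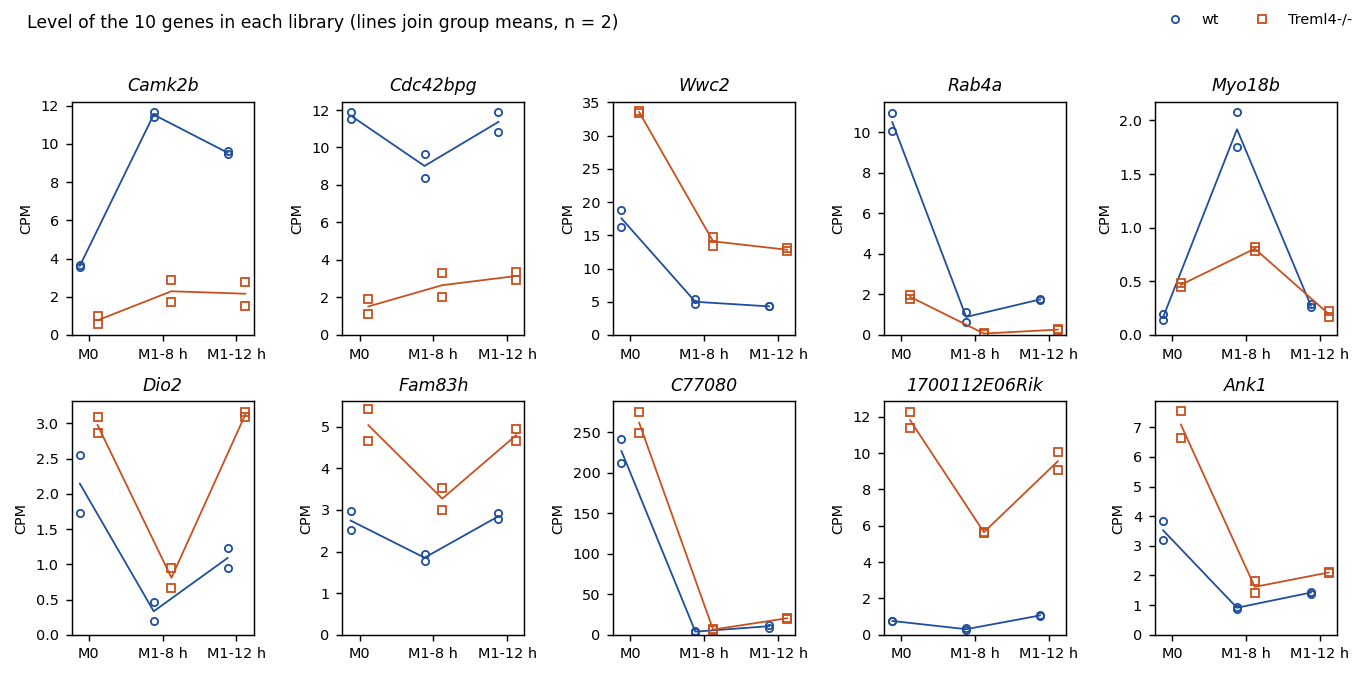
CPM of each gene in each of the 12 libraries (1 panel per gene, linear axis from 0) by time of LPS, with wt as circles, *Treml4-/-* as squares and lines joining the group means (n = 2). The genotypes are apart at each time in every panel, which the choice of the genes favoured. *Myo18b* changes its order between M0 and M1-8 h, and *C77080* drops from 212 CPM or more at M0 to 6.86 CPM or less at M1-8 h in both genotypes.

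*Camk2b* was the 1 gene of the 10 called higher at both times of LPS over both genotypes, on the deposited scale. The wt libraries had 3.66 and 3.56 CPM at M0, 11.4 and 11.7 CPM at M1-8 h and 9.61 and 9.47 CPM at M1-12 h, and in *Treml4-/-* cells 0.978 and 0.561, 2.86 and 1.72, and 2.79 and 1.53 CPM. Both LPS groups lay above M0 without overlap in both genotypes, and the *Treml4-/-* replicates after LPS were further apart than those of wt. Over both genotypes it rose by 1.16 on the log2(CPM + 1) scale at 8 h (SE 0.146, adjusted p = 1.17e-05, limma) and by 1.00 at 12 h (SE 0.146, adjusted p = 4.07e-05, limma), which was 1.89 and 1.76 above the median gene. Between 8 h and 12 h the change was -0.16 (95% interval -0.48 to 0.16) and did not pass.

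As a ratio, the response of *Camk2b* lay close in both genotypes. Its mean CPM at M1-8 h was 3.19 times that of M0 in wt (95% counting interval 2.84 to 3.60) and 2.97 times in *Treml4-/-* (2.35 to 3.96), and at M1-12 h 2.64 and 2.81 times. The fitted log2(CPM + 1) changes at 8 h were 1.44 in wt and 0.88 in *Treml4-/-*, a scale on which the pseudocount shrinks changes of low genes more. Its wt to *Treml4-/-* ratio was 4.69 at M0, 5.04 at 8 h and 4.42 at 12 h of LPS. Counting intervals, here and below, cover counting error only and not the spread between cultures.

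*Cdc42bpg* was the other kinase that was higher in wt, and its genotype ratio was smaller after LPS than at M0. Levels in wt stood at 11.9 and 11.5 CPM at M0, 8.38 and 9.65 CPM at M1-8 h and 11.9 and 10.8 CPM at M1-12 h. Its *Treml4-/-* levels were 1.12 and 1.93, 2.00 and 3.31, and 2.96 and 3.33 CPM. The wt libraries of M1-8 h lay below M0 and the *Treml4-/-* libraries above M0, while at M1-12 h wt overlapped M0.

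Relative to M0 in the same genotype, *Cdc42bpg* stood at 77.0% in wt and 174% in *Treml4-/-* at M1-8 h, and at 97.1% and 206% at M1-12 h. The wt to *Treml4-/-* ratio went from 7.68 at M0 to 3.40 at 8 h and 3.61 at 12 h of LPS. Over both genotypes the log2 change was 0.09 at 8 h (adjusted p = 0.521, limma) and 0.35 at 12 h (SE 0.133, adjusted p = 0.0284, limma), the latter under the 1.4-fold threshold, and under median of ratios scaling both passed, with 0.70 and 1.00. In wt alone the change at 8 h was -0.35 as deposited and 0.42 under median of ratios scaling, so its sign in wt followed the scaling. In *Treml4-/-* alone it was called higher at both times, with 0.53 at 8 h and 0.73 at 12 h, and the 8 h value was 0.30 and not past the thresholds without *Treml4-/-* M0 replicate 1 and 0.27 without *Treml4-/-* M1-8 h replicate 2.

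*Rab4a*, the endosomal GTPase, fell after LPS in both genotypes and was higher in wt. Its wt levels were 10.0 and 11.0 CPM at M0, 1.15 and 0.631 CPM at M1-8 h and 1.73 and 1.79 CPM at M1-12 h, and in *Treml4-/-* cells 2.00 and 1.78, 0.0342 and 0.110, and 0.25 and 0.278 CPM. Every LPS library lay below every M0 library of its genotype, and every M1-12 h library above both M1-8 h libraries. At M1-8 h the *Treml4-/-* libraries held 2 and 6 *Rab4a* reads. Over both genotypes the change was -2.02 at 8 h (SE 0.0937, adjusted p = 1.68e-09, limma) and -1.63 at 12 h (SE 0.0937, adjusted p = 1.02e-08, limma).

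As a share of M0, *Rab4a* stood at 8.48% in wt (counting interval 0.0669 to 0.104 as a ratio) and 3.82% in *Treml4-/-* (0.0160 to 0.0755) at M1-8 h, and at 16.7% and 14.0% at M1-12 h. Its wt to *Treml4-/-* ratio was 5.57 at M0, 12.4 at 8 h (counting interval 6.06 to 29.7) and 6.66 at 12 h of LPS. The return between 8 h and 12 h was 0.40 on the log2(CPM + 1) scale over both genotypes (adjusted p = 0.00349, limma), below 1.4-fold. Without wt M1-8 h replicate 1 it was 0.50 and passed, and with a pseudocount of 0.1 CPM it was 1.04. *Rab4a* lies on chromosome 8 inside a longer same-strand gene model, *Gm20388*, which was not among the genes tested, and how the counting treated reads that lie in both is not given in the sources used here.

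*Wwc2*, the Hippo pathway scaffold, was lower in wt and fell with LPS in both genotypes. The wt libraries had 18.8 and 16.3 CPM at M0, 4.64 and 5.35 CPM at M1-8 h and 4.30 and 4.31 CPM at M1-12 h. Levels in *Treml4-/-* cells stood at 33.4 and 33.7, 14.7 and 13.4, and 13.1 and 12.6 CPM. The *Treml4-/-* libraries after LPS lay below the wt libraries at M0, and within each genotype the 3 time points did not overlap. Over both genotypes it fell by 1.41 at 8 h (SE 0.0793, adjusted p = 8.77e-09, limma) and 1.56 at 12 h (SE 0.0793, adjusted p = 3.42e-09, limma), and both changes stayed below 0 under median of ratios scaling with -0.67 and -0.78. From 8 h to 12 h the change was -0.15 and did not pass (95% interval -0.32 to 0.02). At M1-8 h it stood at 28.5% of M0 in wt and 42.0% in *Treml4-/-*, and at M1-12 h at 24.5% and 38.3%. The wt level was 52.3% of the *Treml4-/-* level at M0, 35.4% at 8 h and 33.5% at 12 h of LPS.

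*Myo18b*, the muscle-type myosin, was higher at 8 h of LPS than at M0 and at 12 h in both genotypes. Levels in wt stood at 0.193 and 0.138 CPM at M0, 1.76 and 2.08 CPM at M1-8 h and 0.288 and 0.258 CPM at M1-12 h. The *Treml4-/-* libraries had 0.448 and 0.486, 0.786 and 0.823, and 0.167 and 0.226 CPM. Only the wt M1-8 h libraries were above 1 CPM, and only through them did this gene pass the filter on low values. A rise at 8 h, a fall by 12 h and a higher level in wt at 8 h were thus built into its being tested. Its changes are given from the fit with no filter. There the change over both genotypes was 0.81 at 8 h (adjusted p = 2.88e-07, limma) and -0.89 from 8 h to 12 h (adjusted p = 2.88e-06, limma).

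In reads, *Myo18b* went from 17 in the wt M0 libraries together to 199 at 8 h and 28 at 12 h of LPS, and from 48 to 91 and 21 in *Treml4-/-*. Its M1-8 h level was 11.6 times that of M0 in wt (counting interval 7.08 to 20.4) and 1.72 times in *Treml4-/-* (1.198 to 2.49). At M1-12 h it was 1.65 times M0 in wt (0.872 to 3.21) and 42.0% of M0 in *Treml4-/-*. The wt level was 35.4% of that of *Treml4-/-* at M0, 2.38 times that at 8 h and 1.39 times at 12 h of LPS (counting interval 0.753 to 2.55). The 6 muscle markers summed to 0.193 to 0.265 CPM at M0 and 0.410 to 0.816 CPM after LPS, with *Des* and *Actc1* at 0 throughout. *Myh3* was higher after LPS, with at most 0.0771 CPM at M0 and 0.171 to 0.642 CPM after LPS. *Acta1* had a lower range after LPS, with 0.116 to 0.256 CPM at M0 and 0.0417 to 0.201 CPM after LPS. The part of other cells in the *Myo18b* values was not tested.

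*Ank1*, the red cell ankyrin, was lower in wt and fell with LPS. Its wt levels were 3.84 and 3.21 CPM at M0, 0.949 and 0.873 CPM at M1-8 h and 1.46 and 1.39 CPM at M1-12 h. Its *Treml4-/-* levels were 6.64 and 7.54, 1.42 and 1.81, and 2.08 and 2.12 CPM. Its LPS groups lay below M0, and M1-12 h above M1-8 h, without overlap in either genotype. The falls over both genotypes were 1.44 at 8 h (SE 0.0855, adjusted p = 1.46e-08, limma) and 1.14 at 12 h (SE 0.0855, adjusted p = 1.09e-07, limma), and both changes stayed below 0 with -0.86 and -0.50 under median of ratios scaling. The change from 8 h to 12 h was 0.30 (adjusted p = 0.0112, limma), under 1.4-fold. *Ank1* stood at 25.9% of M0 in wt and 22.8% in *Treml4-/-* at M1-8 h, and at 40.4% and 29.6% at M1-12 h, and the wt level was 49.7, 56.4 and 67.8% of that of *Treml4-/-* at the 3 times. The 8 erythroid markers summed to 0.163 to 0.225 CPM at M0 and 0.0199 to 0.149 CPM after LPS, and did not move together. *Klf1* had 0.0815 to 0.206 CPM at M0 and at most 0.0404 CPM after LPS. The highest levels of *Hbb-bt*, *Hba-a1* and *Hba-a2* went the other way. They were 0.0187, 0.0407 and 0.0204 CPM at M0 and 0.0575, 0.0743 and 0.0513 CPM after LPS. *Epb4.2* was at 0 in every library and the globin genes *Hbb-bs* and *Hbb-bt* at 0.0575 CPM or less. The part of such cells in the *Ank1* values was not tested.

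*Dio2*, the T3-forming deiodinase, fell at 8 h and came back by 12 h. The wt libraries had 1.74 and 2.56 CPM at M0, 0.202 and 0.464 CPM at M1-8 h and 1.23 and 0.953 CPM at M1-12 h. Levels in *Treml4-/-* cells stood at 3.10 and 2.86, 0.667 and 0.951, and 3.17 and 3.09 CPM. In *Treml4-/-* cells the M1-12 h libraries overlapped M0, whereas in wt both stayed below M0. Over both genotypes it fell by 1.19 at 8 h (SE 0.108, adjusted p = 6.38e-07, limma) and rose by 0.92 from 8 h to 12 h (SE 0.108, adjusted p = 2.62e-05, limma). The 12 h change against M0 was -0.26, under 1.4-fold, and 0.30 under median of ratios scaling.

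At M1-8 h *Dio2* stood at 15.5% of M0 in wt (counting interval 0.107 to 0.227 as a ratio) and 27.2% in *Treml4-/-* (0.212 to 0.343), and at M1-12 h at 50.8% and 105%. In wt alone the 12 h change of -0.58 passed, but not without wt M0 replicate 2 (-0.39) nor under median of ratios scaling (-0.06). The wt level was 72.1% of that of *Treml4-/-* at M0, 41.2% at 8 h and 34.8% at 12 h of LPS.

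*C77080* had the greatest LPS response of the 10 genes. Levels in wt stood at 212 and 242 CPM at M0, 3.63 and 4.07 CPM at M1-8 h and 12.3 and 8.95 CPM at M1-12 h. The *Treml4-/-* libraries had 275 and 249, 5.95 and 6.86, and 19.8 and 21.04 CPM. The 3 time points were far apart in both genotypes, with M1-8 h lowest. The log2 change over both genotypes was -5.35 at 8 h (SE 0.0992, adjusted p = 1.17e-12, limma), which was -4.63 relative to the median gene and ranked 24 among all falls, and -3.96 at 12 h (SE 0.0992, adjusted p = 1.35e-11, limma), ranked 161. From 8 h to 12 h it rose by 1.39 (SE 0.0992, adjusted p = 6.76e-07, limma), ranked 176 among all rises.

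The M1-8 h level of *C77080* was 1.70% of M0 in wt and 2.45% in *Treml4-/-*, and the M1-12 h level was 4.69% and 7.81%. The wt level was 86.7% of that of *Treml4-/-* at M0, 60.1% at 8 h and 52.1% at 12 h of LPS. Its log2 differences between wt and *Treml4-/-* were -0.21, -0.61 and -0.90 at the 3 times. The gene shares its last 30 bases with *Yars* on the opposite strand, and whether the counting used strand is not given in the sources used here.

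*Fam83h*, the casein kinase 1 anchor, had the smallest LPS change at 8 h of the 10 genes besides *Cdc42bpg* on the deposited scale. Relative to the median gene it was at 0.28, where *1700112E06Rik* was at 0.03. The wt levels of *Fam83h* were 2.97 and 2.52 CPM at M0, 1.94 and 1.76 CPM at M1-8 h and 2.92 and 2.78 CPM at M1-12 h. Its *Treml4-/-* levels were 4.64 and 5.43, 3.01 and 3.53, and 4.65 and 4.95 CPM. M1-8 h lay below M0 without overlap in both genotypes and M1-12 h overlapped M0 in both. Over both genotypes the change at 8 h was -0.45 (SE 0.0859, adjusted p = 4.16e-04, limma), under 1.4-fold, and 0.15 under median of ratios scaling. From 8 h to 12 h it was 0.44 (adjusted p = 0.00108, limma), also under 1.4-fold, and the 12 h change against M0 was -0.01 (95% interval -0.20 to 0.18). Without any 1 of wt M0 replicate 2, *Treml4-/-* M0 replicate 1 or *Treml4-/-* M1-8 h replicate 2, the 8 h change was -0.49 and passed 1.4-fold. In *Treml4-/-* alone the 8 h change of -0.50 passed, but was -0.41 and did not pass without *Treml4-/-* M1-8 h replicate 1 or *Treml4-/-* M0 replicate 2. *Fam83h* stood at 67.5% of M0 in wt and 65.0% in *Treml4-/-* at M1-8 h, and the wt level was 54.5, 56.6 and 59.4% of that of *Treml4-/-* at the 3 times.

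*1700112E06Rik* had the widest genotype difference among the genes lower in wt. The wt libraries had 0.752 and 0.767 CPM at M0, 0.242 and 0.371 CPM at M1-8 h and 1.02 and 1.11 CPM at M1-12 h. Levels in *Treml4-/-* cells stood at 11.4 and 12.3, 5.68 and 5.62, and 10.1 and 9.04 CPM. The wt level was 6.43% of that of *Treml4-/-* at M0, 5.43% at 8 h and 11.1% at 12 h of LPS, that is 15.6, 18.4 and 8.98 times lower. In both genotypes M1-8 h was lowest, and M1-12 h lay above M0 in wt and below M0 in *Treml4-/-*.

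Over both genotypes *1700112E06Rik* fell by 0.69 at 8 h (SE 0.0774, adjusted p = 4.38e-06, limma), which is 0.03 above the median gene, and -0.21 under median of ratios scaling was under 1.4-fold. It rose by 0.66 from 8 h to 12 h (SE 0.0774, adjusted p = 2.61e-05, limma), 0.72 above the median gene, and the 12 h change against M0 was -0.03 as deposited and 0.55 under median of ratios scaling. As a share of M0 it stood at 40.4% in wt (counting interval 0.261 to 0.622 as a ratio) and 47.8% in *Treml4-/-* (0.433 to 0.525) at M1-8 h, and at 140% and 80.8% at M1-12 h. The gene spans chromosome 14 from 22019712 to 23056085 and overlaps several noncoding models on the opposite strand that were not tested.

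**Figure D2:**
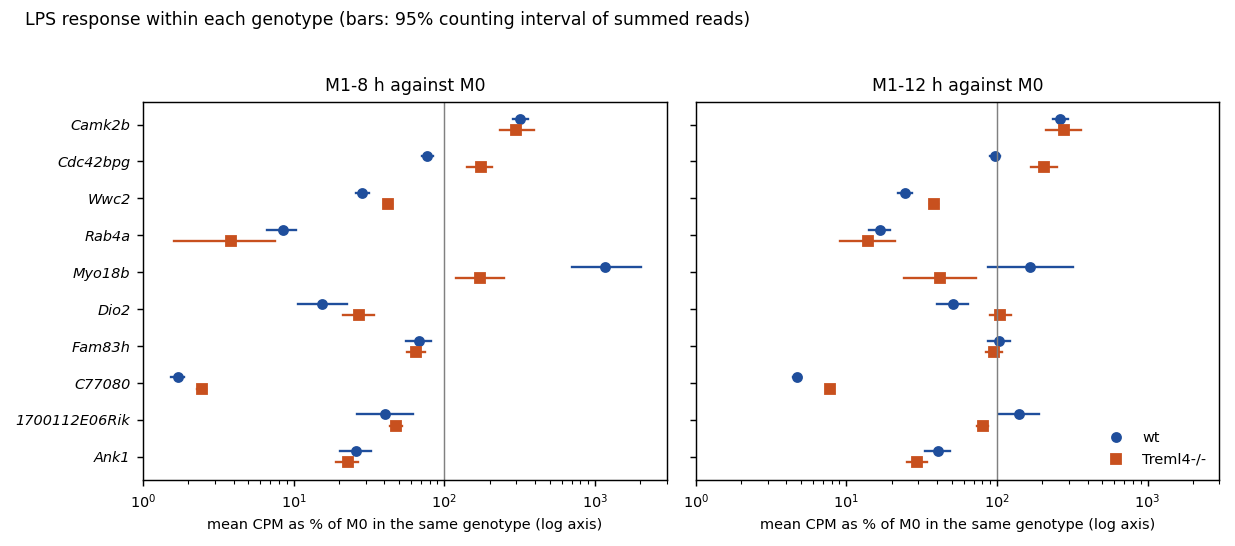
Mean CPM after LPS as a percent of M0 in the same genotype (log axis), at M1-8 h and M1-12 h, wt as circles and *Treml4-/-* as squares, with 95% counting intervals of the summed reads (n = 2 libraries per group). *Camk2b* lies right of 100% in all 4 cases and *C77080* far left, and the 2 genotypes fall on opposite sides of 100% for *Cdc42bpg* at both times and for *Myo18b*, *Dio2*, *Fam83h* and *1700112E06Rik* at M1-12 h. Of these *Fam83h* lies near 100% in both, with 104% and 95.3%. The M1-12 h intervals of *Cdc42bpg* and *Myo18b* in wt and of *Dio2* in *Treml4-/-* also include 100%. Under median of ratios scaling *Cdc42bpg*, *Fam83h* and *1700112E06Rik* were above M0 in both genotypes at M1-12 h.

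**Figure D3:**
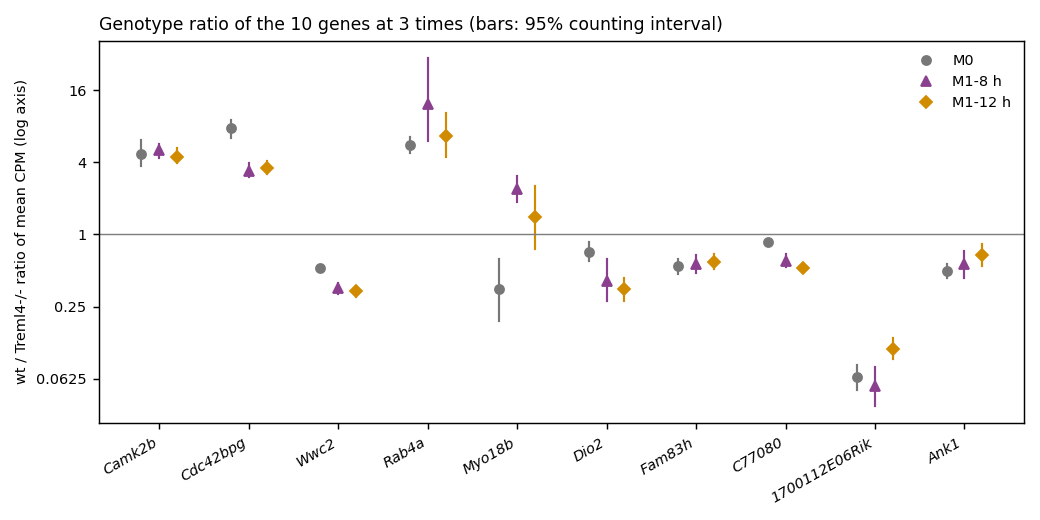
Ratio of mean CPM in wt to that in *Treml4-/-* cells (log axis) for each gene at M0 (circles), M1-8 h (triangles) and M1-12 h (diamonds), with 95% counting intervals. The ratio of *Camk2b* stays between 4.42 and 5.04, that of *Cdc42bpg* is highest at M0 with 7.68, and that of *Myo18b* moves from 0.354 to 2.38.

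Most of the 10 genes responded to LPS at 8 h, as did most genes in these cells. Over both genotypes 8 of the 10 were called at 8 h, 2 higher and 6 lower, where 76.9% of all 12086 genes were called, 17.1% higher and 59.8% lower. At 12 h there were 5, 1 higher and 4 lower, where 76.5% of all genes were called, 16.3% higher and 60.3% lower. In wt alone 7 were called at 8 h, 2 higher and 5 lower, where 76.9% of all genes were, 16.3% higher and 60.6% lower. In wt at 12 h there were 6, 1 higher and 5 lower, where 76.7% of all genes were called, 16.2% higher and 60.4% lower. In *Treml4-/-* cells alone 9 were called at 8 h, 2 higher and 7 lower, where 75.9% of all genes were, 17.7% higher and 58.1% lower. At 12 h these cells had 6, 2 higher and 4 lower, where 75.7% of all genes were called, 16.1% higher and 59.6% lower. *Myo18b* is among the higher genes at 8 h through the filter on low values. Of the 9 genes without it 7 were called at 8 h over both genotypes, 1 higher and 6 lower, and 6 in wt. Within-genotype counts use the same libraries as the comparisons that chose the genes. Under median of ratios scaling the counts over both genotypes were 3 higher and 5 lower at 8 h and 4 higher and 4 lower at 12 h. Of all 12086 genes 7554 were called at 8 h under that scaling, 3762 higher and 3792 lower. At 12 h it called 7892, 3949 higher and 3943 lower.

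Between 8 h and 12 h of LPS 4 of the 10 genes were called over both genotypes, with *Dio2*, *C77080* and *1700112E06Rik* higher at 12 h and *Myo18b* lower, where 32.1% of all genes were called, 13.5% higher and 18.7% lower. In wt alone 5 were called, 4 higher and 1 lower, where 31.6% of all genes were, 14.0% higher and 17.6% lower. In *Treml4-/-* cells alone 4 were called, 3 higher and 1 lower, where 32.3% of all genes were, 12.9% higher and 19.4% lower. *Rab4a* was the gene called in wt and not in *Treml4-/-*, a difference that was not tested, with 0.56 in wt and 0.24 in *Treml4-/-* on the log2(CPM + 1) scale and 1.97 and 3.67 as a ratio of mean CPM. In wt it was 0.36 and not past the thresholds without wt M1-8 h replicate 2, and the wt count was then 3, with *Myo18b* no longer tested. Without *Myo18b*, whose fall the filter built in, the counts were 3 over both genotypes, 4 in wt and 3 in *Treml4-/-*, all of them higher at 12 h. The median of the 10 log2 changes was -0.94 at 8 h against M0, where that of all genes was -0.72, -0.17 at 12 h, where that of all genes was -0.76, and 0.35 from 8 h to 12 h, where that of all genes was -0.06.

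**Figure D4:**
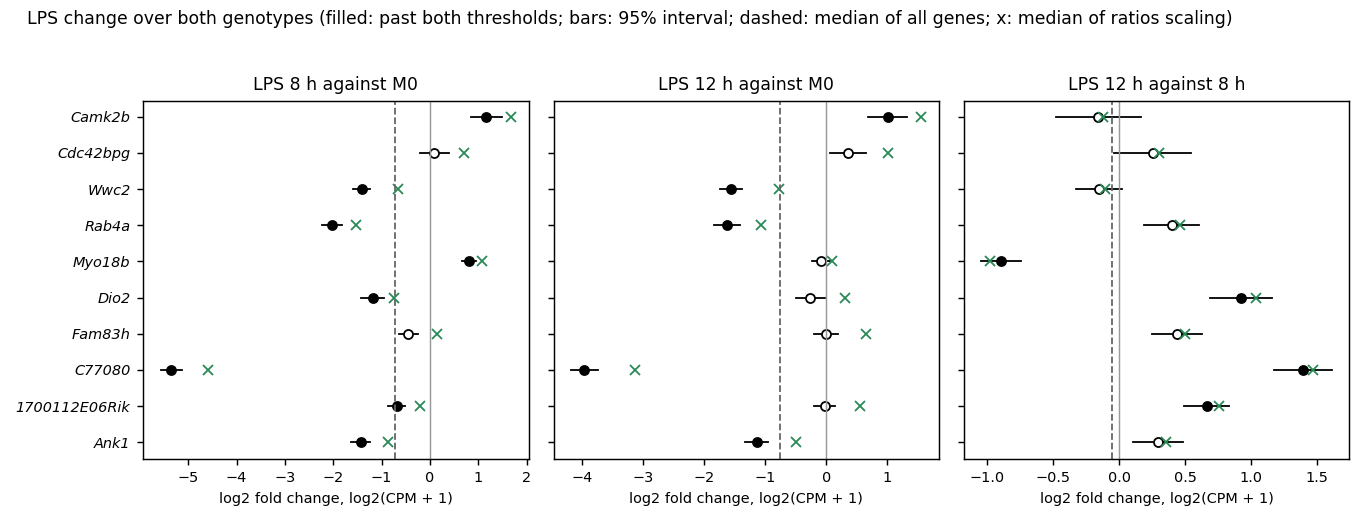
Log2 fold change on the log2(CPM + 1) scale over both genotypes for LPS 8 h against M0, LPS 12 h against M0 and LPS 12 h against 8 h, with 95% intervals from limma over 12 libraries, filled points past both thresholds (for *Myo18b* a rise at 8 h and a fall by 12 h were built in by the filter on low values), the median of all 12086 genes as a dashed line and the value under median of ratios scaling as a cross. At 8 h and 12 h the crosses lie right of the points for all 10 genes, and from 8 h to 12 h points and crosses nearly coincide.

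RefSeq promoter sequences (GRCm38.p6) were at hand for 4 of the 10 genes, namely *Camk2b*, *Wwc2*, *Dio2* and *C77080*. The 250 bases before the start were searched on both strands for a kB site (GGG and TTTCC with any 2 bases between), an AP-1 site (TGANTCA), a CRE (TGACGTCA) and an ISRE (GAAA and GAAA with any 2 bases between), letters that 1.41, 6.75, 1.55 and 2.98% of all 32851 promoters hold in this window. *Camk2b*, with 78.4% G and C and 44 CpG, and *Wwc2*, with 72.0% and 26 CpG, held none of them, where the median over all promoters is 52.4% and 6 CpG. *Dio2* and *C77080*, both of which fell at 8 h and rose again by 12 h, held 1 each, and their windows are shown with the matching letters in capitals, read 5′ to 3′ on the gene's strand. The *Dio2* window lies at chr12:90739039-90739288 on the minus strand, with the CRE 95 to 88 bases before the start. RefSeq lists 4 starts for *C77080*, of which the most upstream, at chr4:129261405-129261654 on the minus strand, holds an AP-1 site 45 to 39 bases before the start and the other 3 hold none of the motifs. A match gives letters only, and no binding was measured.
Dio2: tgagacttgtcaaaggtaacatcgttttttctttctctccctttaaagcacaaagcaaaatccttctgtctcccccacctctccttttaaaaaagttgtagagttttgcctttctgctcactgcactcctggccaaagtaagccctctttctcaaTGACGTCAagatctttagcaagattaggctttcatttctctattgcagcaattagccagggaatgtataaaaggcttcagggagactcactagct
C77080: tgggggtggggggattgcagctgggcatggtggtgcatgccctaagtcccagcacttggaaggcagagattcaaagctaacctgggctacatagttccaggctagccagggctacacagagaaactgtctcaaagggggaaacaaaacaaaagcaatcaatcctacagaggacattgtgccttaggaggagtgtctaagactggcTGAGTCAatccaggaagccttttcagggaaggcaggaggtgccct

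The genes lay on chromosomes 4, 5, 8, 11, 12, 14, 15 and 19, while *Treml4* lies on chromosome 17. *Wwc2* (chr8:47823959-47990924, minus strand), *Rab4a* (chr8:123805985-123835287, plus strand) and *Ank1* (chr8:22974844-23150497, plus strand) share a chromosome, and none lies within 1000000 bases of another. Chromosome 8 thus held 3 of the 10, where it held 653 of the 11974 tested genes with a known position, a difference in share that was not tested. The others were *Camk2b* (chr11:5969644-6066362, minus), *Cdc42bpg* (chr19:6306456-6325652, plus), *Myo18b* (chr5:112688876-112896362, minus), *Dio2* (chr12:90724552-90738438, minus), *Fam83h* (chr15:76001093-76014336, minus) and *C77080* (chr4:129219578-129261404, minus), in GRCm38. Of the genes tested within 1000000 bases of each of the 10, from 3 around *Dio2* to 74 around *Cdc42bpg* and 264 in all, 0 were called between genotypes at any time by limma or by voom, and 65 had an unadjusted p under 0.05 at 1 or more times, as had 3313 of all 12086 genes. Only 20 of all 12086 genes were called at any time by limma and 15 by voom, so 0 among so few genes says little. An annotated gene on the opposite strand overlaps 7 of the 10, and only 1 of all overlapping genes, *Yars*, was tested.

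Relatives of the 10 genes responded to LPS in both directions. Of 95 tested relatives 0 were called between genotypes at any time by limma or by voom, where 20 and 15 of all 12086 genes were. An unadjusted p under 0.05 at 1 or more times was found for 33 relatives and for 3313 of all genes. Of 9 tested calcium/calmodulin kinases, calmodulins and inhibitors related to *Camk2b*, 1 rose and 7 fell at 8 h over both genotypes, or 2 and 5 under median of ratios scaling. The kinase gene *Camk1* with -2.82 (SE 0.0941, adjusted p = 1.17e-10, limma) and the calmodulin gene *Calm2* with -2.47 fell most. Of 12 kinases and effectors around Cdc42, 2 rose and 5 fell, or 4 and 4 under median of ratios scaling, with *Cdc42ep2* at 2.10 and *Rock1* at 1.13 and, among the falls, *Cit*, the citron kinase, at -3.99 and *Cdc42ep3* at -3.90, which reached 1 CPM only at M0. Of 11 Hippo genes 3 rose and 6 fell, or 5 and 4, with the kinase *Stk3* at 1.90 and its partner *Sav1* at 1.51, and *Vgll4* at -3.59 and *Nf2* at -2.27.

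Of 18 endosomal Rab genes and effectors, 6 rose and 7 fell, or 11 and 2 under median of ratios scaling. *Rab11fip1* (3.40) and *Ehd1* (2.50), which act in recycling endosomes, rose most, and *Rab11fip3* (-2.51) and *Rab11fip5* (-1.42) fell most. *Ehd1* went from 145.7 ± 34.2 CPM (SD, n = 2) at wt M0 to 921.8 ± 66.7 CPM at wt M1-8 h, while *Rab4a* fell. Among 15 other myosins 3 rose and 10 fell, or 4 and 4, with *Myh10* at 0.78 and *Myo9a* at 0.76, and *Myo18a*, the closest relative of *Myo18b*, at -1.83. *Myh10* reached 1 CPM only at M1-8 h and so passed the filter on low values only through the time at which it was high. *Myo9a* was 0.48 and not past the thresholds without *Treml4-/-* M1-8 h replicate 2. At 12 h *Myh10* (0.37) and *Myo9a* (0.14) were not called, and of the 15 myosins 0 rose and 12 fell, or 3 and 3 under median of ratios scaling.

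Of 10 genes of thyroid hormone action 1 rose and 9 fell, or 1 and 5 under median of ratios scaling, with the transporter *Slc7a8* at 1.17, *Slco4a1* at -4.89 and the receptor partner *Rxra* at -3.42. *Slco4a1*, like *Dio2*, had its lowest level at M1-8 h, with 117 ± 0.794 CPM (SD, n = 2) at wt M0, 2.82 ± 0.531 at 8 h and 16.6 ± 5.72 at 12 h of LPS. Of 5 FAM83 and casein kinase 1 genes 1 rose and 3 fell, or 2 and 3, with *Csnk1a1* at 0.54, *Fam83d*, which reached 1 CPM only at M0, at -3.91 and *Fam83f* at -3.17, and *Csnk1a1* was 0.40 and not past the thresholds without wt M0 replicate 2. Of 14 ankyrin, spectrin and membrane skeleton genes 4 rose and 8 fell, or 5 and 5, with *Tmod3* at 1.63, *Add3* at -4.004 and *Epb4.1l1* at -2.89. The 1 tested relative of *C77080*, *Nhsl2*, fell by 1.61.

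For each gene the tested genes outside the set with the most similar level over the 12 libraries were sought by Pearson's r of log2(CPM + 1), a description in which all libraries share genotype and LPS time. *Camk2b* was followed by *Mag* (r = 0.85) and *Fbrsl1* (0.85), *Cdc42bpg* by *Treml4* itself (0.94) and *Gm15446* (0.92), and *Wwc2* by *Fam115a* and *Gm14548* (both 0.94). The genes were chosen for a genotype difference, which by itself favours a high r with other genes that differ between genotypes. This applies to *Cdc42bpg* with *Treml4*, which had no read in *Treml4-/-* cells, and to *1700112E06Rik* with the genes named next. In wt the mean levels of *Cdc42bpg* and *Treml4* were both lowest at M1-8 h, and whether they are regulated together was not tested. *1700112E06Rik* was nearest to *Pira2* and *Gdf3* (both 0.93), which were likewise higher in *Treml4-/-* cells, with mean *Gdf3* levels of 2.34, 0.654 and 0.360 CPM in wt and 52.8, 14.7 and 11.8 CPM in *Treml4-/-* at the 3 times. For *C77080* the nearest were *Fam83f* and *Tpm1* (both 1.00), for *Myo18b* *Trpc4ap* and *Heg1* (both 0.95), for *Dio2* *Inpp5j* and *Slc38a7* (both 0.94), for *Fam83h* *Serpinb1c* (0.91) and *Katnbl1* (0.88), for *Rab4a* *Bloc1s3* and *Bbc3* (both 0.90) and for *Ank1* *Gm25047* and *Cerkl* (both 0.97). The median r over all genes tested ranged from -0.46 for *Camk2b* to 0.81 for *C77080*.

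Of 26 marker genes that could be tested, 0 were called between genotypes at any time by limma or by voom, where 20 and 15 of all 12086 genes were. An unadjusted p under 0.05 at 1 or more times was found for 9 markers and for 3313 of all genes. The 8 neutrophil markers summed to 48.1 to 158 CPM at M0 and 48.9 to 108 CPM after LPS, with *Mpo* at 6.98 to 31.5 CPM at M0 and 0.516 to 7.76 CPM after LPS, and *S100a8* in the other direction with 8.79 to 26.4 CPM at M0 and 30.7 to 50.3 CPM after LPS. The 6 neuronal markers summed to 1.77 to 4.68 CPM, of which *Syn1* was the main part and *Snap25* and *Rbfox3* were at 0 in every library. Fibroblast markers summed to at most 2.51 CPM, epithelial to at most 0.531 CPM and lymphocyte markers to at most 0.501 CPM. The part of these cells in the levels of the 10 genes was not tested, and in bulk RNA fewer cells of a type and less RNA per cell cannot be told apart.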

How the data were processed

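RNA-seq of 12 BMDM libraries was used, grouped by the genotype, LPS time and replicate number in the sample labels. The authors aligned reads with STAR to mm10 (submitters' notes), counted them on genes with Subread and deposited log2 CPM with a prior of 0.25 reads. Whether strand was used in counting is not given in the sources used here. The deposited log2 values were turned back into reads, and 100% were whole within 0.01. CPM were reads over library totals.

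log2(CPM + 1) was fitted with limma 3.58.1 (R 4.3.3, trend, 1 mean per condition, 12 libraries) over the 12086 genes reaching 1 CPM in 2 or more libraries. Called genes had a Benjamini-Hochberg adjusted p under 0.05 over all genes tested and at least 1.4-fold. CPM had been planned for, which the log2 values gave back. The fit was tested on simulated data in which equal numbers of genes were raised and lowered. These data lacked the fall of the median gene seen after LPS and so do not bear on the scaling. Counting intervals are exact 95% binomial intervals of summed reads. Positions came from GENCODE M21.

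The 10 genes and all lists were chosen with earlier results of these data known. Named besides them were *Treml4*, the 2 largest rises and falls called at 8 h in each relatives list, and the 2 genes most correlated with each of the 10. Some genes that fall under these rules are not reported here. *Epb4.2*, *Hbb-bs*, *Hbb-bt*, *Hba-a1*, *Hba-a2*, *Des*, *Actc1*, *Myh3*, *Acta1*, *Mpo*, *S100a8*, *Klf1*, *Syn1*, *Snap25*, *Rbfox3*, *Xist* and the overlapping *Yars* and *Gm20388* were chosen for mention with their values in view. Alternatives tried were another pseudocount, other filters, scaling, blocks, fewer libraries and voom.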

Additional observations from a re-analysis of the deposited data

Results flagged for a closer look

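In 3 cases every library moved one way after LPS in wt and the other way in *Treml4-/-*. The share of all genes that do so was not counted, and with 2 libraries per group separation is common. The difference between the genotypes was not tested, because it is made of the comparisons that chose the genes. In the *Cdc42bpg* case the nearest *Treml4-/-* libraries had 1.93 CPM at M0 and 2.00 CPM at M1-8 h. For *Cdc42bpg* at 8 h the wt response minus the *Treml4-/-* response was -0.88 on the log2(CPM + 1) scale (-0.35 in wt and 0.53 in *Treml4-/-*), and under median of ratios scaling both genotypes rose, with 0.42 and 0.98. For *Myo18b* at 12 h it was 0.42 (0.13 and -0.30), with 28 reads in the wt and 21 in the *Treml4-/-* libraries at 12 h, and with 0.27 and -0.09 under median of ratios scaling. For *1700112E06Rik* at 12 h it was 0.51 (0.23 and -0.28), and under median of ratios scaling both genotypes were higher, with 0.62 and 0.47.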

How the results depend on the processing

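The counts of the 10 genes called by LPS were mostly within 1.5 times of those given under the alternatives run, with these exceptions. At 12 h over both genotypes the count was 8 under median of ratios scaling, and from 8 h to 12 h it was 2 with a filter at 5 CPM, which leaves fewer of the 10 genes, and 7 with voom, an alternative chosen after seeing the data. From 8 h to 12 h in 1 genotype, alternatives that were also added after seeing the data, the filter at 5 CPM gave 3 in wt and 2 in *Treml4-/-*, and wt had 3 without wt M1-8 h replicate 2. Leaving out 1 library gave 6 to 7 genes at 8 h in wt, 8 to 9 at 8 h in *Treml4-/-*, 5 to 6 at 12 h in wt, 6 to 6 at 12 h in *Treml4-/-*, 7 to 9 and 5 to 5 over both genotypes at 8 h and 12 h, and 3 to 4 from 8 h to 12 h, with 3 to 5 in wt and 3 to 5 in *Treml4-/-*. Genes called between genotypes were 6 at M0 and 5 at M1-8 h with only the libraries of the comparison, 7 at M1-8 h and 7 at M1-12 h with no filter on low values, and 10 at M1-12 h with voom, where the cause was not tested, and 7 to 219, 8 to 598 and 6 to 79 at the 3 times when 1 library was left out. Signs turned in 26 single values, most of them near 0. Under median of ratios scaling, which by construction moves the values up, the log2 changes became 0.42 (8 h) and 0.76 (12 h) for *Cdc42bpg* in wt, 0.09 and 0.30 over both genotypes at 12 h for *Myo18b* and *Dio2*, 0.19, 0.10 and 0.15 at 8 h in wt, in *Treml4-/-* and over both for *Fam83h*, with 0.62 and 0.65 at 12 h in *Treml4-/-* and over both, and 0.47 and 0.55 at 12 h in *Treml4-/-* and over both for *1700112E06Rik*, which was also 0.07 with a pseudocount of 0.1 CPM and 0.08 with voom over both. Leaving out 1 library turned signs at 0.19 and 0.23 (range -0.36 to 0.23) for *Camk2b* from 8 h to 12 h in *Treml4-/-*. For *Cdc42bpg* the ranges were -0.10 to 0.02 at 12 h in wt, -0.04 to 0.22 at 8 h over both (-0.02 also turned) and -0.06 to 0.47 from 8 h to 12 h in *Treml4-/-*, for *Fam83h* -0.05 to 0.13, -0.15 to 0.04 and -0.05 to 0.04 (0.01 also turned) at 12 h in wt, in *Treml4-/-* and over both, and for *1700112E06Rik* -0.06 to 0.01 at 12 h over both. The replicate numbers are not said to pair the samples, and the same-numbered libraries of the genotypes had correlations of deviations of -0.26, 0.30 and 0.06 at the 3 times. For M0 with 8 h, M0 with 12 h and 8 h with 12 h of the same genotype, wt libraries had 0.12, 0.06 and 0.41, and those of *Treml4-/-* 0.46, -0.20 and -0.27. With the replicate number as a block the counts between genotypes were 12, 12 and 15 and those of the 10 genes 7, 9, 6, 6, 8, 5 and 4 in the order above. A block by replicate number within each genotype was run for the LPS comparisons only and gave the same counts of the 10 genes. edgeR and DESeq2, planned for recovered reads, were not run, and voom was run on those reads in their place. With 2 libraries per group the spread comes from all 12 libraries, and the lone library of a reduced group is assumed to vary like the others.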
